A study of Mus musculus with 25 samples.

Results

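The genes described here are 10 neuronal activity-regulated genes: Fos, Fosb, Junb, Egr1, Arc, Npas4, Nr4a1, Dusp1, Homer1 and Bdnf. They were chosen by name, through their Entrez gene IDs matched to mouse symbols, and are 10 of the 36528 gene IDs counted in every library, of which 30799 had a count in any library. RNA was sequenced from cells sorted from brains of mice aged 6 months: neurons taken by the nuclear protein NeuN and astrocytes taken by the filament protein Gfap. The mice either carried a transgene for human tau (hMAPT) with the P301S mutation or were littermates without the transgene (non-Tg). The 4 groups were non-Tg neurons (8 libraries), P301S neurons (6 libraries), non-Tg astrocytes (6 libraries) and P301S astrocytes (5 libraries). The labels used here do not give the promoter that drives the transgene or the sex of the mice. Nor do they say if several animals were pooled for a library, so p-values reflect only how these samples vary, which may be technical. Myeloid cells sorted in the same experiment were not analysed here.

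Neurons switch on these genes within minutes to hours of synaptic activity, when calcium enters through NMDA receptors and voltage-gated channels and kinases phosphorylate the transcription factors CREB and SRF with its partners. The first genes to respond, the immediate early genes, include transcription factors (Fos, Fosb, Junb, Egr1, Npas4 and Nr4a1) and the phosphatase Dusp1, which switches off MAP kinases. They also include proteins that act at the synapse, such as Arc, which promotes the removal of AMPA receptors, and the short form of the scaffold Homer1. Bdnf is a secreted neurotrophin with many activity-dependent start sites. Because the response is fast, handling and dissociation of tissue can induce the same genes, also in glia.

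CREB binds the cAMP response element (CRE), so the stretch upstream of 1 start site with a CRE motif is shown for 5 of the genes, 1 or more of each role. RefSeq promoter windows on GRCm38.p6 were at hand for 8 of the 10 genes, 15 windows in all; Arc and Egr1 had none. The Npas4 window is counted here but lies within an annotated exon and is not printed. The CRE half-site, TGACG on either strand, occurred in the 250 bases upstream of at least 1 start site of each of the 8 genes, in 8 of the 15 windows, against 17.8% of all 32851 windows of that length. The share of all genes with at least 1 such window was not taken, and Bdnf alone had 7 of the 15 windows. The full CRE, TGACGTCA, contains the half-site on both strands and was found for Dusp1 only (1.55% of all windows). The CArG box bound by SRF was in none of the 15 windows over these 250 bases (1.47% of all), and sites further upstream were not searched. The AP-1 motif TGANTCA was in 1 Bdnf window (6.75% of all). TATAAA, searched on both strands, was in the Fos window (12.4% of all). In the sequences below, printed 5′ to 3′ on the strand of the gene without any bases that an annotated exon covers, capitals mark these motifs. The Fos sequence is chr12:85473640-85473889 on the plus strand, and it has 2 half-sites and the TATA box. The Nr4a1 sequence is chr15:101266596-101266845 on the plus strand, with 4 half-sites. The Homer1 sequence is chr13:93303507-93303756 on the plus strand, with 3 half-sites. Dusp1 is shown at chr17:26508520-26508722 on the minus strand, with the full CRE and a further half-site. Bdnf is shown at chr2:109692186-109692435 on the plus strand, the only one of its 7 windows with a half-site. A match of letters is a description and not evidence of binding.
Fos: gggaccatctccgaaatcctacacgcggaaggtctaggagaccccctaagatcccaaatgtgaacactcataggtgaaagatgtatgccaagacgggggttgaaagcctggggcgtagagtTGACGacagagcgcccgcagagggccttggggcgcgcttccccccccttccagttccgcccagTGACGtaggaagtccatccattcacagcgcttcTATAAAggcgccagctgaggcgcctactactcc
Nr4a1: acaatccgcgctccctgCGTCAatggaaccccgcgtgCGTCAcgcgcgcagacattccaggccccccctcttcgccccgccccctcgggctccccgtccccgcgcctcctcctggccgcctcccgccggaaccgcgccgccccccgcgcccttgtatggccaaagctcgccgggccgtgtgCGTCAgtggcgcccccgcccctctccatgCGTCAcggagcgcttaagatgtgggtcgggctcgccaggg
Homer1: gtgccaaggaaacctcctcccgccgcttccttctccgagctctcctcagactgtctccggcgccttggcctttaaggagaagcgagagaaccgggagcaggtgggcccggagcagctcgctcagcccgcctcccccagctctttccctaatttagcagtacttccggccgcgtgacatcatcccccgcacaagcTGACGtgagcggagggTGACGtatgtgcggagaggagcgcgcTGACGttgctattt
Dusp1: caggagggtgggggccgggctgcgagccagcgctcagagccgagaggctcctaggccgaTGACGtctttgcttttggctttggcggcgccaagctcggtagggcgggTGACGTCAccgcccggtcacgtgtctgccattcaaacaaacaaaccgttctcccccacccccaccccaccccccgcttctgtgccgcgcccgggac
Bdnf: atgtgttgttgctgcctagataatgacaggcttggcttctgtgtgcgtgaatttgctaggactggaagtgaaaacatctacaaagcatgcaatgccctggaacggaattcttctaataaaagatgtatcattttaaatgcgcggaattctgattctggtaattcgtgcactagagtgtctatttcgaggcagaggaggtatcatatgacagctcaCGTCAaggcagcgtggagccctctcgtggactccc

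Libraries held between 1245964 and 4453555 counts. A floor of 3 counts corresponded to between 0.674 and 2.41 CPM (counts per 1e+06 counts in the library). These floors are unscaled, whereas all levels of genes and lists in CPM were also scaled by a factor per library from the TMM method. Floors, and the intervals given as counting intervals, cover counting error only. The sorts matched their labels by the defining markers: Rbfox3, which encodes NeuN, was at 73.7 ± 22.9 CPM (SD, n = 8) in non-Tg neurons and 4.98 ± 3.96 CPM (SD, n = 6) in non-Tg astrocytes. Slc1a2, a glutamate transporter of astrocytes, was at 300.6 ± 78.1 CPM (SD, n = 8) in those neurons and 13918 ± 3092 CPM (SD, n = 6) in those astrocytes. In P301S libraries, neuron markers summed to between 37093 and 63086 CPM in neurons and between 1474 and 2230 CPM in astrocytes. Astrocyte markers summed to between 338 and 638 CPM in P301S neurons and between 15043 and 29105 CPM in P301S astrocytes. Gfap itself was at 917 ± 138 CPM (SD, n = 5) in P301S astrocytes and 196 ± 103 CPM (SD, n = 6) in non-Tg astrocytes. Some libraries stood apart. Non-Tg neuron libraries 5 and 8 carry sample identifiers from another range than the rest, and library 8 was the deepest (4453555 counts). P301S astrocyte library 4 had the fewest genes detected (13894) and the highest mitochondrial share of counts (11.4%). It also had the lowest TMM factor (0.559), which raises its scaled CPM values. The 5 P301S astrocyte libraries had mitochondrial shares from 3.61% to 11.4%, against 2.31% to 5.66% in non-Tg astrocytes.

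Per unit of gene length, Homer1 and Egr1 were the most abundant of the 10 genes in neurons and Dusp1 was the most abundant in astrocytes. In non-Tg neurons, the size-factor-adjusted RPKM deposited by the authors (reads per kilobase of gene, scaled for depth) was 4.50 ± 0.677 (SD, n = 8) for Homer1 and 2.00 ± 0.423 for Egr1. Bdnf followed at 0.876 ± 0.389, Npas4 at 0.610 ± 0.277, Dusp1 at 0.569 ± 0.199, Arc at 0.487 ± 0.285 and Nr4a1 at 0.367 ± 0.317. Fos (0.227), Junb (0.141) and Fosb (0.0284) were lowest. Only the steps from Homer1 to Egr1 and from Egr1 to Bdnf were wider than the SDs of both neighbours. In P301S neurons, Homer1 (5.36 ± 1.60 RPKM, SD, n = 6) and Egr1 (2.99 ± 1.14 RPKM) were again first, and Arc stood at rank 3 with 1.17 ± 0.557 RPKM instead of rank 6, below Egr1 by more than both SDs but not apart from Npas4 at rank 4. In astrocytes, Dusp1 was at 3.20 ± 0.550 RPKM (SD, n = 6) without the transgene, above Homer1 at 1.06 ± 0.351 RPKM by more than both SDs. In P301S astrocytes Dusp1 was at 3.09 ± 3.44 RPKM (SD, n = 5), a spread that overlapped Homer1 at 0.561 ± 0.383 RPKM.

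**Figure D1:**
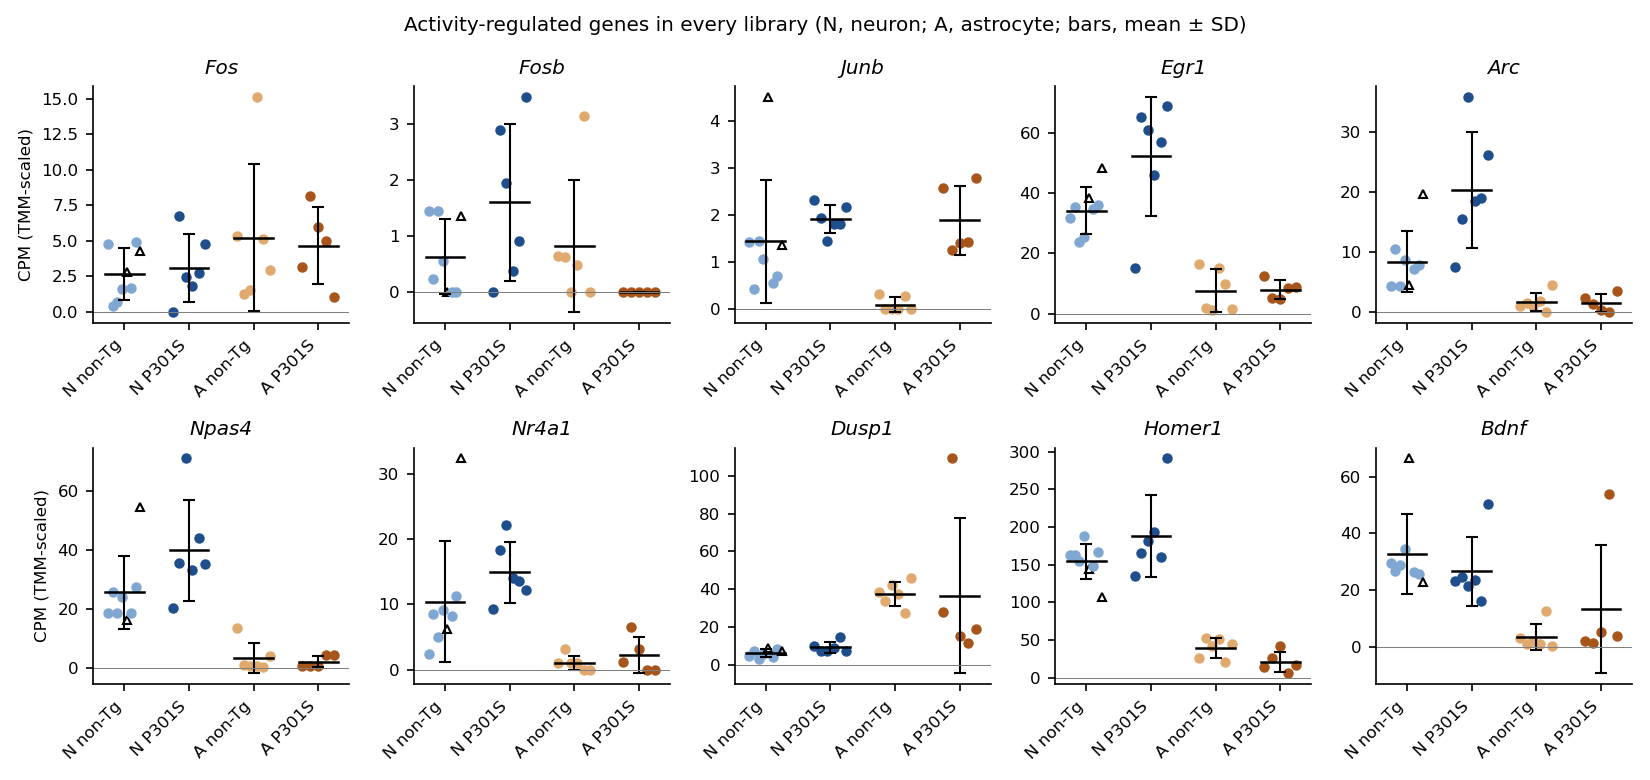
Level of each of the 10 genes in every library, in CPM scaled by the TMM method on linear axes, for neurons (N) and astrocytes (A) of each genotype; bars give mean ± SD and open triangles mark non-Tg neuron libraries 5 and 8. Arc, Npas4 and Nr4a1 in non-Tg neuron 8 (19.7, 54.5 and 32.5 CPM) lie among or above the P301S neuron libraries, and Dusp1 alone is higher in non-Tg astrocytes than in every neuron library.

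In neurons, 6 of the 7 genes with enough counts for a test had higher estimates in P301S mice, led by Arc, but none passed the test. The same 7 genes had a median log2 fold change of 0.55, against -0.02 over all 10951 genes tested, and 46.2% of all genes were above 0. At an adjusted p under 0.05 (edgeR's quasi-likelihood test, Benjamini-Hochberg over all genes), 0 of the 7 genes were called, where 0.00913% of all genes were (1 gene). DESeq2 also called 0 of the 7. The P301S and non-Tg libraries overlapped for each of the 7, where 0.21% of all genes had groups that did not overlap. At an unadjusted p under 0.05, 3 of the 7 were higher (Arc, Egr1 and Npas4), where 3.04% of all genes were higher and 7.73% differed in either direction. On simulated counts for this comparison, a 2-fold change was recovered for 60.4% of changed genes and a 4-fold change for 100%.

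Arc, whose protein acts in AMPA receptor removal, was at 7.50 CPM in P301S neuron library 1, the lowest of that group. The other P301S libraries were at 15.4, 18.4, 19.0, 26.1 and 35.8 CPM. In non-Tg neurons Arc ran from 4.30 CPM to 19.7 CPM with a median of 7.46 CPM. The highest of these values was library 8, and the next was 10.5 CPM. The groups therefore overlapped: 2 of 6 P301S libraries were above every non-Tg library, and 5 of 6 were above every non-Tg library other than 8. The means were 20.4 ± 9.67 CPM (SD, n = 6) and 8.36 ± 5.12 CPM (SD, n = 8), a log2 fold change of 1.18 (SE 0.34, fold 2.26, adjusted p = 0.313 by edgeR). Without non-Tg neuron 8 the log2 fold change of Arc was 1.54 (SE 0.30, adjusted p = 0.0373) and it passed the test, where 0.216% of all genes did. Without both libraries of the other identifier range it was 1.46 (SE 0.30, adjusted p = 0.0353), where 0.36% of all genes passed. Library 8 was the highest non-Tg neuron library for Arc, Egr1, Npas4 and Nr4a1, so leaving it out raises their estimates by construction. Over the 14 fits that each left out 1 neuron library, the estimate for Arc lay between 0.94 (without P301S neuron 3) and 1.54, with adjusted p between 0.0373 and 0.807.

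Egr1, a zinc finger transcription factor, was at 15.0 CPM in P301S neuron 1 and at 45.9, 56.9, 61.0, 65.0 and 68.7 CPM in the other P301S neuron libraries. Non-Tg neurons ran from 23.8 to 48.3 CPM (median 35.0 CPM). Thus 4 of 6 P301S libraries were above all non-Tg libraries while 1 was below all of them. The log2 fold change was 0.60 (SE 0.24, adjusted p = 0.590). It was 0.78 without P301S neuron 1 and 0.70 without non-Tg neuron 8, with adjusted p = 0.188 and 0.186. These fits left out the lowest P301S and the highest non-Tg library, which raises the estimate by construction.

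Npas4, a transcription factor induced by calcium entry, was at 20.2 CPM in P301S neuron 1, at 33.3, 35.2, 35.6 and 44.2 CPM in 4 further libraries and at 71.2 CPM in P301S neuron 3. In non-Tg neurons it ran from 16.3 to 54.5 CPM, with a median of 21.5 CPM and library 8 again highest, above a next value of 27.6 CPM. The log2 fold change was 0.61 (SE 0.28, adjusted p = 0.634), and 0.90 without non-Tg neuron 8 (adjusted p = 0.0855). Nr4a1, an orphan nuclear receptor, was between 9.23 and 22.3 CPM in P301S neurons (median 13.8 CPM) and between 2.39 and 32.5 CPM in non-Tg neurons (median 8.41 CPM). All 6 P301S libraries were above the non-Tg median, none was above non-Tg neuron 8, and 5 were above the next non-Tg value of 11.3 CPM. The log2 fold change of Nr4a1 was 0.42 (SE 0.39, adjusted p = 0.844), and 1.04 without non-Tg neuron 8 (adjusted p = 0.104).

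Fos, Fosb and Junb, which encode subunits of the AP-1 transcription factor, were too low in neurons for a test under the count filter. Fos had between 0 and 14 counts per P301S neuron library (41 in all) and between 1 and 22 per non-Tg neuron library (53 in all). Relative to the total counts, Fos stood in a ratio of 1.17 between P301S and non-Tg neurons (95% exact counting interval 0.760 to 1.79). Fosb had 21 counts over the P301S libraries and 14 over the non-Tg libraries, a ratio of 2.27 (1.10 to 4.83), with 0 counts in P301S neuron 1 and in 3 non-Tg libraries. For Junb the 25 and 26 counts gave a ratio of 1.46 (0.806 to 2.62). These intervals leave out the spread between libraries. With no filter, edgeR gave adjusted p = 0.935 for Fos, 0.683 for Fosb and 0.793 for Junb.

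Dusp1, the MAP kinase phosphatase, was between 7.23 and 14.9 CPM in P301S neurons (median 8.04 CPM) and between 2.88 and 9.01 CPM in non-Tg neurons (median 6.53 CPM). All 6 P301S libraries were above the non-Tg median and 2 were above the highest non-Tg library. The log2 fold change was 0.55 (SE 0.27, adjusted p = 0.648). Homer1, whose long forms link metabotropic glutamate receptors to the postsynaptic scaffold and whose short form is the activity-induced one, ran from 134 to 291 CPM in P301S neurons and from 108 to 188 CPM in non-Tg neurons. The values are per gene and do not separate the short form from the long forms. Its log2 fold change was 0.28 (SE 0.16, adjusted p = 0.699) and 0.12 without P301S neuron 6, the highest library. Here non-Tg neuron 8 was the lowest library, at 108 CPM.

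Bdnf was the only one of the 7 genes with a lower estimate in P301S neurons. It was between 16.2 and 24.6 CPM in 5 P301S neuron libraries and at 50.5 CPM in P301S neuron 6. Non-Tg neurons lay between 22.8 and 34.4 CPM in 7 libraries, with library 5 at 66.5 CPM. The log2 fold change was -0.28 (SE 0.26, adjusted p = 0.842). It was -0.57 without P301S neuron 6 and -0.055 without non-Tg neuron 5. As with Homer1, the gene's transcripts from different start sites were counted together.

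**Figure D2:**
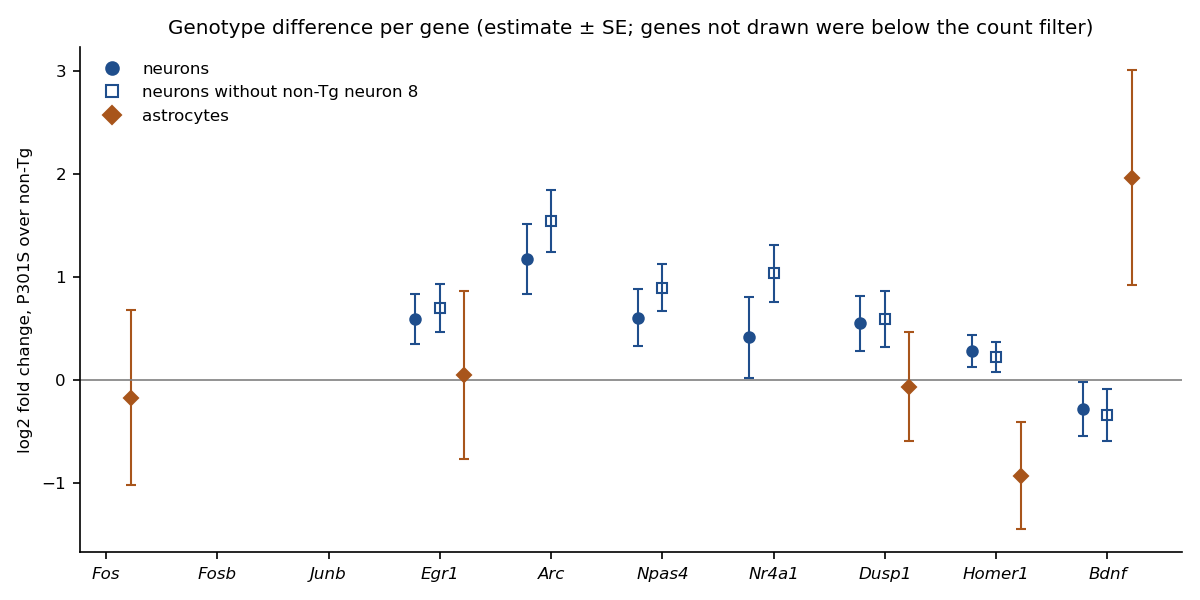
Log2 fold change of P301S over non-Tg libraries for each gene that passed the count filter (estimate ± SE), in neurons, in neurons without non-Tg neuron 8, and in astrocytes. Arc moves from 1.18 to 1.54 and Nr4a1 from 0.42 to 1.04 without that library, and the astrocyte estimates have the wider errors. The library left out was the highest non-Tg neuron library for both genes, so their rise follows from the choice.

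Within a genotype, Arc and Npas4 were high or low in mostly the same neuron libraries, and the other pairs of the 7 tested genes in fewer. Each library's log2 CPM was set against the mean of its own group. Arc and Npas4 were on the same side of their group means in 12 of 14 neuron libraries, Npas4 in 11 with each of Nr4a1 and Dusp1, and Egr1 and Nr4a1 in 10. Arc shared a side with each of Egr1, Nr4a1, Dusp1 and Homer1 in 9. Homer1 and Egr1 shared a side in 4 of 14. These counts describe libraries that share depth, dissection and sort for both genes of a pair, and no share over pairs of all genes was taken. P301S neuron 1 was lowest, with the 7 tested genes on average 0.67 log2 units below the group mean, written -0.67, and only Dusp1 above it. Its mitochondrial share of counts (2.43%) and its summed microglia and myeloid markers (448 CPM) were the highest of the 14 neuron libraries. Non-Tg neuron 8 was highest, at 0.61 above its group mean with 5 of 7 genes above it. Its summed microglia and myeloid markers (33.6 CPM), astrocyte markers (249 CPM) and dentate granule neuron markers (1002 CPM) were the lowest of the 8 non-Tg neuron libraries. Their part in these levels was not tested.

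**Figure D3:**
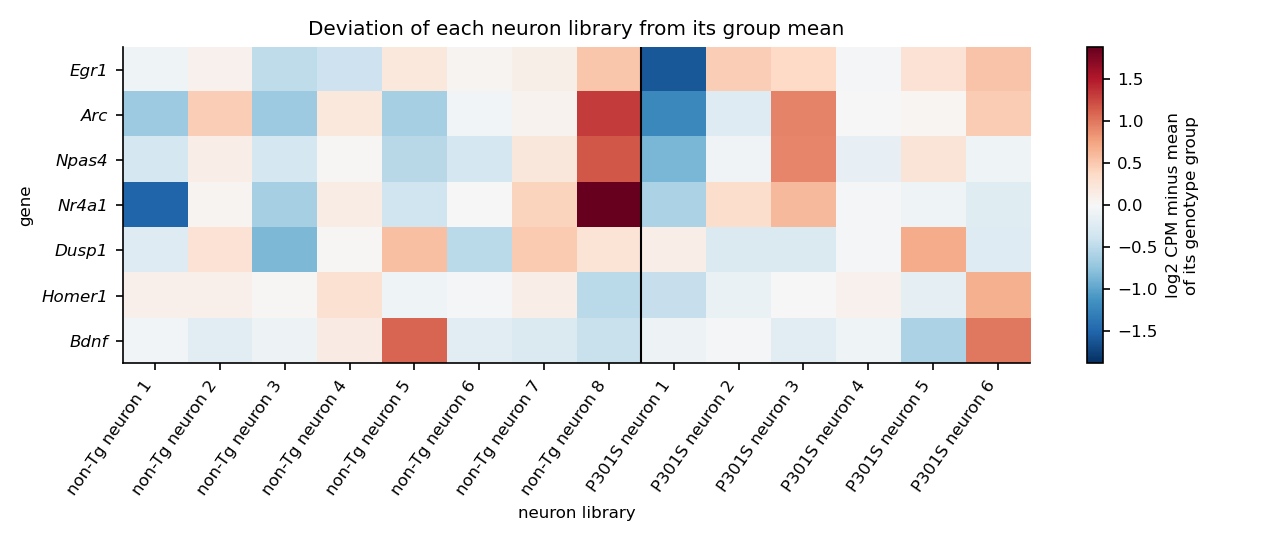
Log2 CPM of the 7 genes tested in neurons, in each of the 14 neuron libraries, minus the mean of that library's genotype group; the vertical line separates non-Tg from P301S libraries. Non-Tg neuron 8 is high for Arc, Npas4 and Nr4a1 and low for Homer1 and Bdnf, P301S neuron 1 is low for Egr1, Arc, Npas4 and Nr4a1, and Bdnf is high in non-Tg neuron 5 and P301S neuron 6.

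The library profile averaged over the 7 genes was closest to that of Arc among the genes themselves (mean absolute difference of the standardised profiles 0.304 over 14 libraries), followed by Npas4 (0.434), Nr4a1 (0.483) and Egr1 (0.503). Homer1 (0.908), Dusp1 (0.925) and Bdnf (1.07) were further from it. Each of the 7 genes is part of this average, and genes that vary more weigh more in it, so their order is partly set by construction. Among the other 7791 genes with at least 10 CPM in neurons, the 6 most alike were Camkk2 (0.292), Mre11a (0.303), Upf3a (0.363), A330023F24Rik (0.375), Nr4a3 (0.390) and Maged1 (0.401). Of these 6, Nr4a3 is in the list of other immediate early transcription factors described next. The 6 are the extremes of 7791 genes over 14 libraries, and how close unrelated genes come was not tested.

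The other lists of the activity pathway had medians between -0.02 and 0.30 in neurons, and no gene of these lists passed the test. Of 11 tested genes among 19 other immediate early transcription factors, 7 were above 0, with a median log2 fold change of 0.20. Csrnp1 had the smallest p of this list (1.18, SE 0.41, adjusted p = 0.472), and Jund, an AP-1 subunit, was at 0.60 (SE 0.26, adjusted p = 0.629). All 5 tested signalling feedback genes were above 0, with a median of 0.30, among them Rgs2 (0.30), which dampens G protein signalling, and the kinase Sik1 (0.40). Late effectors had 6 of 10 above 0 and a median of 0.06, with Inhba, an activin subunit, at 0.62 and Baz1a at 0.94. The upstream list of NMDA receptor subunits, calcium-dependent kinases and phosphatases, and CREB and its cofactors had 8 of 20 above 0 and a median of -0.02. There, Ppp3ca, a calcineurin subunit, was at -0.42 (SE 0.17). Receptors and binding partners of the 10 genes' products had 5 of 8 above 0 and a median of 0.07. In that list the glutamate receptor gene Grm5 was at -0.48 (SE 0.19, adjusted p = 0.567). At an unadjusted p under 0.05 there were 2 genes among the other transcription factors, 0 among feedback genes, 0 among late effectors, 1 upstream and 2 among receptors and partners, where 7.73% of all genes passed.

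Genes known to respond to tissue dissociation and heat shock, and markers of other cells, had the following estimates in the same comparison. Of 8 tested dissociation and heat shock genes, 6 were above 0 with a median log2 fold change of 0.37. The chaperone gene Hsp90ab1 was at 0.52 (SE 0.18, adjusted p = 0.477) and Dnajb1 at 0.77 (SE 0.28, adjusted p = 0.504), and the summed level of the 20 listed genes ran from 422 to 747 CPM in P301S neurons and from 324 to 602 CPM in non-Tg neurons. All 9 tested astrocyte markers were above 0 (median 0.73), led by Gfap (1.72, SE 0.47, adjusted p = 0.254) and the water channel gene Aqp4 (1.07). Their summed level was between 338 and 638 CPM in P301S neurons and between 249 and 631 CPM in non-Tg neurons. Microglia and myeloid markers had 8 of 8 above 0 (median 0.74), with C1qc at 1.31 and Itgam at 0.86, and summed levels of 86.6 to 448 CPM against 33.6 to 204 CPM. Inhibitory neuron markers had 5 of 5 above 0 (median 0.57), with Lhx6 at 1.34 (SE 0.33, adjusted p = 0.208) and Gad2, which makes GABA, at 0.64. Dentate granule neuron markers had 8 of 10 below 0 (median -0.25), with C1ql3 at -0.98 (SE 0.23, adjusted p = 0.200) and Stxbp6 at -0.88 (SE 0.18, adjusted p = 0.121), and summed levels of 733 to 1133 CPM against 1002 to 1516 CPM. General neuron markers had 4 of 9 above 0 (median -0.08), with Syt1, the calcium sensor of vesicle release, at -0.28 and Snhg11 at 0.22. Excitatory neuron markers had 6 of 8 above 0 (median 0.12), with Tbr1 at -0.47 and Slc17a6 at 0.87. All 4 tested oligodendrocyte markers were above 0 (median 0.23), with Mobp at 0.71 and Mbp at 0.30, and summed levels of 68.4 to 83.9 CPM against 40.4 to 92.4 CPM. Among vascular genes, Tek was at -0.63, Acta2 at -0.41 and Dcn at -0.34, the endothelial marker Cldn5 was at or near 0 in all groups, and no oligodendrocyte precursor marker was tested. None of these list members was called. At an unadjusted p under 0.05 by edgeR there were 3 of 8 dissociation and heat shock genes, where 7.73% of all genes passed. Of the markers, 4 of 9 astrocyte, 5 of 10 dentate granule and 2 of 5 inhibitory ones passed. So did 1 of 8 microglia and myeloid, 1 of 9 general neuron, 1 of 8 excitatory and 1 of 4 oligodendrocyte markers. For endothelial markers it was 1 of 1, and for mural and fibroblast markers 0 of 2. In sorted bulk RNA, fewer cells of a type and less RNA per cell cannot be told apart. The part of other cell types, of neuron subtype and of dissociation in the levels of the 10 genes was not tested.

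**Figure D4:**
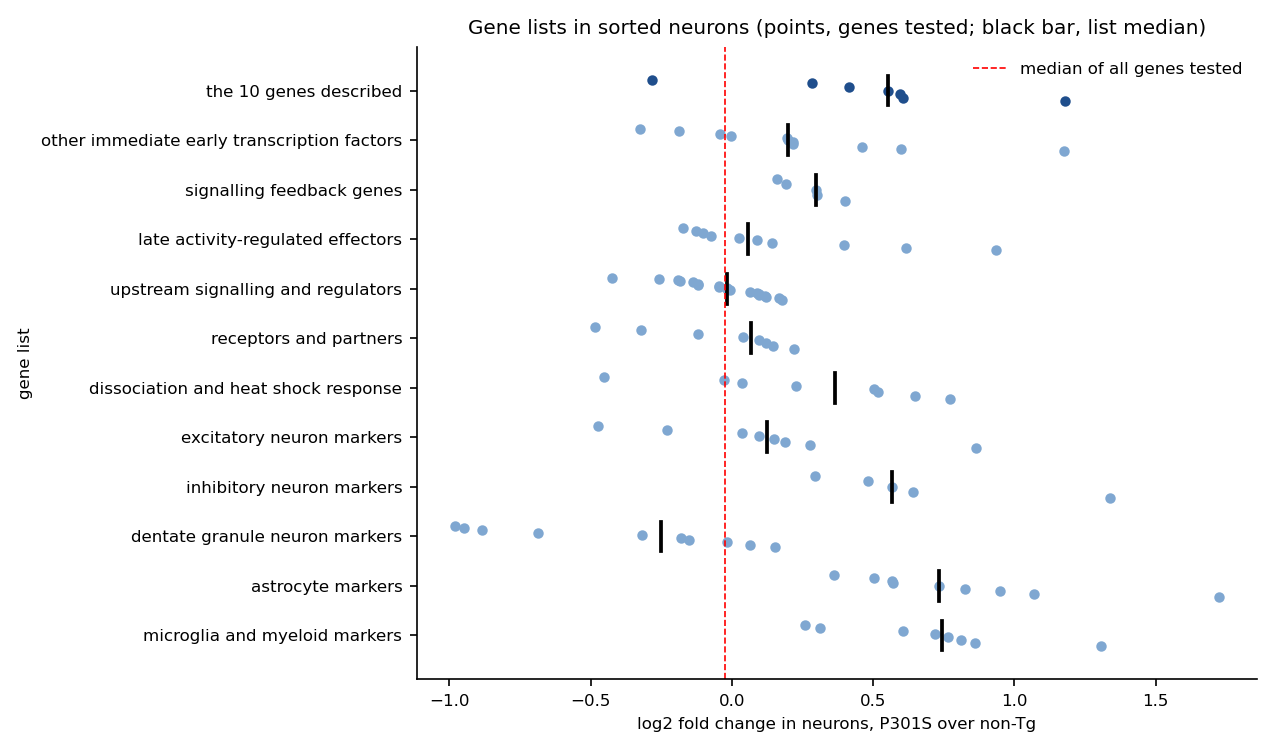
Log2 fold change of P301S over non-Tg neurons for the genes tested in each list (points), with the median of the list (black bar) and of all genes tested (dashed line, -0.02). The 7 tested activity-regulated genes have a median of 0.55, the upstream regulators -0.02, the astrocyte markers 0.73 and the dentate granule neuron markers -0.25.

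In astrocytes, none of the 10 genes passed the test between genotypes, and each gene tested in both cell types had a larger SE than in neurons. Under the count filter 5 genes were tested, and 0 of 5 were called at an adjusted p under 0.05, where 0.544% of all 12130 genes were (66 genes, 63 of them higher). DESeq2 also called 0 of the 5. At an unadjusted p under 0.05 the count was again 0 of 5, where 13.4% of all genes passed. The median log2 fold change of the 5 was -0.06, against 0.13 over all genes. On simulated counts for this comparison a 4-fold change was recovered for 32.6% of changed genes and a 2-fold change for 2.20%. The 5 sex markers ran from -1.03 to 1.59 in astrocytes, with 0 called and 2 at an unadjusted p under 0.05. In neurons they ran from -0.35 to 0.13, with 0 at an unadjusted p under 0.05, where 7.73% of all genes passed. What a sex marker covariate changed is given at the end. The part of sex in the astrocyte estimates was not tested.

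Homer1 was at 5.73, 16.4, 26.3 and 41.6 CPM in P301S astrocyte libraries 4, 5, 2 and 3, with library 1 just below library 5. In non-Tg astrocytes it ran from 20.8 to 52.7 CPM, with a median of 43.5 CPM. All 5 P301S libraries were below that median and 3 were below every non-Tg library. The means were 20.8 ± 13.7 CPM (SD, n = 5) and 39.7 ± 13.1 CPM (SD, n = 6), a log2 fold change of -0.93 (SE 0.52, adjusted p = 0.445). The lowest value came from P301S astrocyte 4, the library with the fewest genes detected.

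Bdnf was at 1.25, 2.00, 3.84 and 5.24 CPM in 4 P301S astrocyte libraries and at 53.7 CPM in library 4. It was between 0.324 and 12.5 CPM in non-Tg astrocytes, with a median of 1.50 CPM. The log2 fold change of 1.97 (SE 1.04, adjusted p = 0.418) rested on P301S astrocyte 4, without which it was -0.12. That library also held 1058 CPM of the summed late activity-regulated effectors, against 108 to 220 CPM in the other 4 P301S astrocyte libraries. Dusp1 rested on 1 library in the same way: it was at 11.5, 15.0, 19.2 and 27.7 CPM in 4 P301S astrocyte libraries and at 109 CPM in library 2, against 27.6 to 45.7 CPM in non-Tg astrocytes. Its log2 fold change was -0.06 (SE 0.53, adjusted p = 0.973) with all libraries and -1.03 without P301S astrocyte 2.

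Egr1 was between 4.89 and 12.6 CPM in P301S astrocytes. Non-Tg astrocytes fell into 3 low libraries (1.02, 1.62 and 1.87 CPM) and 3 higher ones (9.69, 15.1 and 16.4 CPM), so the log2 fold change of 0.05 had an SE of 0.82 (adjusted p = 0.985). Fos was at 1.05, 3.14, 5.01, 5.94 and 8.13 CPM in P301S astrocytes and between 1.25 and 15.1 CPM in non-Tg astrocytes (log2 fold change -0.17, SE 0.85, adjusted p = 0.956). For both genes the sign of the estimate turned in some fits that left out 1 library.

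Among the genes below the filter in astrocytes, Junb had more counts in P301S and Fosb had more in non-Tg libraries. Junb had 4, 4, 2, 9 and 8 counts in P301S astrocyte libraries 2, 3, 4, 1 and 5, and 0 or 1 count in each of the 6 non-Tg astrocyte libraries. All 5 P301S libraries were above all non-Tg libraries. Of the 12130 genes tested, which do not include Junb, 2.08% had groups that did not overlap in this way. No share was taken over genes with counts as low. The sums of 27 and 2 counts gave a ratio of 14.6 relative to the total counts, with a 95% exact counting interval of 3.68 to 127. With no filter, edgeR gave Junb a log2 fold change of 3.63 (SE 1.64, adjusted p = 0.209), so it was not called. Fosb had 0 counts in all 5 P301S astrocyte libraries and 16 counts in the non-Tg astrocytes, 11 of them in library 5 and none in 2 others. Its adjusted p with no filter was 0.172. Arc, Npas4 and Nr4a1 had at most 10, 12 and 21 counts in any P301S astrocyte library. In non-Tg astrocytes Npas4 reached 13.5 CPM in library 1 with a median of 0.724 CPM, Arc reached 4.54 CPM and Nr4a1 reached 3.12 CPM.

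Of the other lists in astrocytes, 3 held called genes: the dissociation and heat shock list, the astrocyte markers and the dentate granule neuron markers. Among 13 tested dissociation and heat shock genes, 2 rose and 0 fell, where 0.544% of all genes were called: the metallothionein genes Mt2 (log2 fold change 2.02, SE 0.35, adjusted p = 0.00671) and Mt1 (1.86, SE 0.41, adjusted p = 0.0393), which encode metal-binding proteins. The list's median was 0.66, with summed levels of 589 to 1276 CPM in P301S astrocytes and 416 to 656 CPM in non-Tg astrocytes. Gfap rose (2.22, SE 0.30, adjusted p = 5.12e-04) as the only one of 12 tested astrocyte markers, whose median was 0.11. Of 7 tested dentate granule neuron markers, Pdzd2 rose (2.39, SE 0.52, adjusted p = 0.0349) while the median of the list was -0.47. No gene of the other activity lists was called, and between 0 and 2 genes per list had an unadjusted p under 0.05, where 13.4% of all genes did. Medians were -0.16 for 8 other immediate early transcription factors (Per1 0.79, Jund 1.33), 0.20 for 6 feedback genes (Gadd45g 2.39, SE 0.77, adjusted p = 0.165; Trib1 1.001) and -0.06 for 7 late effectors (Scg2 -2.39, SE 0.85, adjusted p = 0.206; Inhba 1.47). For 21 upstream genes the median was -0.10 (the deacetylase gene Hdac5 1.67, adjusted p = 0.133; Camk2a 0.80), and for 7 receptors and partners it was 0.48 (Arnt2 0.95, Grm5 0.84).

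No marker of oligodendrocytes, their precursors, microglia, or mural cells and fibroblasts was called in astrocytes, and no general, excitatory or inhibitory neuron marker was. Oligodendrocyte markers had 6 of 7 above 0 (median 0.42; Mobp 1.78, adjusted p = 0.0515; Mbp 1.62, adjusted p = 0.0806) and summed levels of 394 to 1219 CPM in P301S against 197 to 516 CPM in non-Tg astrocytes. All 4 tested oligodendrocyte precursor markers were above 0 (median 1.35; Olig2 1.46, Cspg4 1.66), and so were all 7 tested microglia and myeloid markers (median 0.40; C1qb 2.76, Ptprc 2.40). Neuron markers had 6 of 9 above 0 (median 0.32; Map2 0.50, Celf4 1.07), with summed levels of 1474 to 2230 CPM against 1109 to 1972 CPM. Excitatory neuron markers had 3 of 4 above 0 (median 0.79; Slc17a7 0.99), the single tested inhibitory marker Gad1 was at -0.64, and mural and fibroblast markers had 2 of 5 above 0 (median -0.03; Acta2 -3.37, Pdgfrb -0.24). Their part in the levels of the 10 genes was not tested.

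The difference of the genotype effect between the cell types (astrocytes minus neurons) was tested in 1 fit of all 25 libraries. None of 8 tested genes passed with edgeR or DESeq2, where 0.394% of all 14197 genes did with edgeR; at an unadjusted p under 0.05 there were 2 of 8 (Homer1 and Bdnf), where 14.8% of all genes passed. Homer1, whose estimate was above 0 in neurons and below 0 in astrocytes, differed by -1.19 (SE 0.42, adjusted p = 0.162). Without P301S astrocyte 3 this was -1.61 (SE 0.39, adjusted p = 0.0437), past the threshold, as for 0.682% of all genes in that fit. Bdnf differed by 2.15 (SE 0.95, adjusted p = 0.274), and by 0.13 without P301S astrocyte 4. The estimates for Arc (-1.34, SE 0.90) and Npas4 (-1.43, SE 0.90) had approximate 95% intervals of -3.11 to 0.43 and -3.20 to 0.35. Egr1 was at -0.56, Dusp1 at -0.62, Fos at -0.39 and Nr4a1 at 0.64, each with an SE of at least 0.59. Arc, Npas4 and Nr4a1 were below the count filter in astrocytes alone and entered through the neuron libraries, so their estimates are a description. Their astrocyte counts in P301S and non-Tg libraries were 23 and 28 for Arc, 24 and 61 for Npas4 and 34 and 17 for Nr4a1. Of the Npas4 counts in non-Tg astrocytes, 43 were in library 1. A 4-fold difference was recovered for 10.3% of changed genes in simulated counts. Within the activity lists the smallest p were those of Scg2 (-2.46, SE 0.64, adjusted p = 0.0618) and Pcsk1 (-4.38, SE 1.26, adjusted p = 0.0834), which encode a secretogranin and a prohormone convertase of neurons.

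Between the cell types, Egr1, Arc, Npas4, Nr4a1 and Homer1 were higher in neurons in both genotypes and Dusp1 was higher in astrocytes. In non-Tg libraries 6 of 8 tested genes were higher in neurons and 1 was lower, where 46.9% of all genes were called, 21.8% higher and 25.1% lower in neurons. Arc, Npas4 and Nr4a1 were below the count filter in astrocytes alone and entered this fit through the neuron libraries, where they are high, so their calls are a description. Nr4a1 (log2 difference 3.29, SE 0.77, adjusted p = 6.05e-04), Bdnf (3.16, SE 0.70, adjusted p = 3.17e-04) and Npas4 (2.86, SE 0.62, adjusted p = 2.45e-04) had the largest differences. Arc (2.27, SE 0.62, adjusted p = 0.00275), Egr1 (2.10, SE 0.47, adjusted p = 3.56e-04) and Homer1 (1.90, SE 0.30, adjusted p = 2.09e-06) followed. Every non-Tg neuron library was above every non-Tg astrocyte library for Egr1, Npas4, Homer1 and Bdnf, whereas the groups overlapped for Arc and Nr4a1. Dusp1 was lower in neurons by 2.65 on the log2 scale, written -2.65 (SE 0.40, adjusted p = 1.39e-06), and its neuron libraries (2.88 to 9.01 CPM) lay below all astrocyte libraries (27.6 to 45.7 CPM). Groups that did not overlap were found for 31.2% of all genes. Fos did not pass (-1.03, SE 0.64, adjusted p = 0.198).

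In P301S libraries 5 of 8 genes were higher in neurons, with Arc, Npas4 and Nr4a1 again among them, and 1 was lower, where 52.3% of all genes were called, 23.2% higher and 29% lower. Npas4 differed by 4.28 (SE 0.75), Arc by 3.61 (SE 0.71), Homer1 by 3.09 (SE 0.35), Egr1 by 2.65 (SE 0.53) and Nr4a1 by 2.64 (SE 0.79, adjusted p = 0.00576). Dusp1 was at -2.03 (SE 0.44, adjusted p = 2.75e-04). The neuron and astrocyte libraries did not overlap for Egr1, Arc, Npas4, Nr4a1 and Homer1, as for 29.7% of all genes, whereas those of Dusp1 and Bdnf did. Bdnf was not called (1.01, SE 0.71, adjusted p = 0.235). Without P301S astrocyte 4 it was at 3.05 (SE 0.64, adjusted p = 1.78e-04), where 53.9% of all genes were called. Junb and Fosb were below the filter in this fit. With no filter, Junb was higher in non-Tg neurons than in non-Tg astrocytes (3.16, SE 0.91, adjusted p = 0.00605; 26 counts against 2; 28% of all genes were called in that fit) and stood at 0.045 between the P301S groups (25 counts against 27). Fosb passed between the P301S groups (adjusted p = 0.00415; 21 counts in neurons against 0 in astrocytes; 31.1% of all genes were called).

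**Figure D5:**
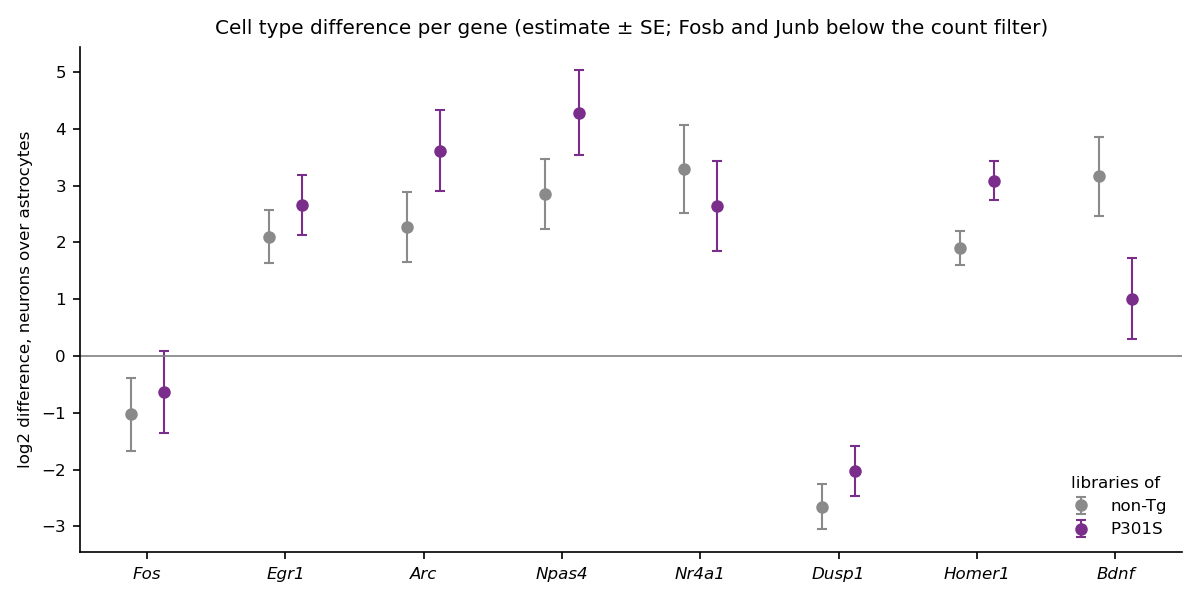
Log2 difference of neurons over astrocytes (estimate ± SE) for the 8 genes that passed the count filter, within non-Tg and within P301S libraries. Egr1, Arc, Npas4, Nr4a1 and Homer1 lie between 1.90 and 4.28 in both genotypes, Dusp1 lies below 0 in both (-2.65 and -2.03), and Bdnf is at 3.16 and 1.01.

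The other activity lists are given against the shares of all genes called between cell types, 21.8% higher and 25.1% lower in neurons in non-Tg and 23.2% and 29% in P301S. In astrocytes alone, only 7 late effectors, 8 other immediate early transcription factors and 7 receptors and partners passed the count filter. In neurons alone, only 5 feedback genes did. Some genes can thus enter this fit through the cell type where they are high, so the calls are a description. In non-Tg libraries 4 of 7 tested feedback genes were lower in neurons and 1 was higher; Spry2, an inhibitor of receptor tyrosine kinase signalling, was at -2.65 and Trib1 at -2.77, and Gadd45g was at -3.19. In P301S libraries the counts were also 4 and 1 of 7. Of 12 late effectors, 7 were higher and 3 lower in neurons in each genotype. Those with the smallest p in both were the prostaglandin synthase gene Ptgs2 (5.53 and 6.38 in non-Tg and P301S) and the sorting receptor gene Sorcs3 (4.01 and 5.73). Among 13 other immediate early transcription factors, 4 were higher and 3 lower in non-Tg, and 5 higher and 1 lower in P301S. Nr4a3 was higher by 4.21 and 2.81, Egr3 by 3.40 and 4.73, and the clock gene Per1 was at -1.42 and -1.962. Of 21 upstream genes, 11 were higher and 1 lower in non-Tg and 12 higher and 2 lower in P301S, and those with the smallest p in both were the NMDA receptor subunit genes Grin2a (5.03 and 4.64) and Grin2b (2.83 and 2.90). Among 9 receptors and partners, 5 were higher in each genotype, including Grm5 (4.42 and 3.09), and 2 were lower in non-Tg and 3 in P301S. Ntrk2, which encodes the Bdnf receptor TrkB, was lower in neurons than in astrocytes (-2.15 in each genotype); gene-level counts do not separate its full-length from its truncated form.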

How the data were processed

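RNA-seq of 25 libraries was used as deposited: per the file headers, each gene has a count of reads uniquely aligned to its gene model and an RPKM value that the authors adjusted by size factors. Per the submitters' processing notes, GSNAP and GRCm38 were used; no version is stated there. The RPKM equal counts times a sample and a gene factor, to a relative deviation of 3.77e-14. Of 36528 Entrez IDs, 31049 matched RefSeq symbols; the 5479 unmatched (3.30% of counts) stayed in all tests.

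Genotype was compared within each cell type, and cell types and the interaction in 1 fit of all 25 libraries, with edgeR 4.0.16 in R 4.3.3 (TMM, filterByExpr, robust quasi-likelihood F test). The threshold was a Benjamini-Hochberg adjusted p of 0.05; the SE is the log2 fold change over the square root of F, and intervals use 1.96 SE. The steps were tested on simulated data with 200 changed genes. Alternatives were DESeq2 1.42.0, no filter, a 1 CPM filter, other fits and covariates, and leaving out libraries. Library profiles used a prior count of 2.

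The labels give no replicate numbers; libraries were numbered in accession order. No library pair looked duplicated: at most 4.98% of counts were equal.

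The 10 genes and all lists were chosen with earlier results of these data known. Named are, by rule, the 10 genes, from each list the called members with the smallest p (up to 4, or 3 between cell types) or otherwise the 2 with the smallest p, marker levels, and the 6 most alike genes. Some genes the rule takes are not reported here, among them the marker lists between cell types. Motifs were searched in RefSeq promoter windows (GRCm38.p6).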

Additional observations from a re-analysis of the deposited data

Results flagged for a closer look

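In 14 cases 1 library lay far from the others of its group for 1 of the 10 genes, out of 39 groups of libraries examined; chance gives about 1 in 20 groups for normally distributed values, a share that need not hold for these low and skewed counts. Non-Tg neuron 8 was high for Arc (19.7 CPM), Npas4 (54.5 CPM) and Nr4a1 (32.5 CPM). Non-Tg neuron 5, whose identifier falls in the same other range, was high for Bdnf (66.5 CPM) and Junb (4.51 CPM, 8 counts). Among P301S neurons, library 6 was high for Bdnf (50.5 CPM) and library 5 for Dusp1 (14.9 CPM).

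In P301S astrocytes, library 4 was high for Bdnf (53.7 CPM) and library 2 for Dusp1 (109 CPM). In non-Tg astrocytes the high values were Npas4 in library 1 (13.5 CPM), Nr4a1 in library 2 (3.12 CPM), Fos in library 4 (15.1 CPM), and Fosb (3.13 CPM) and Bdnf (12.5 CPM) in library 5. All 14 were the highest value of their group.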

How the results depend on the processing

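No paired analysis was possible because the labels give no replicate numbers and do not tie libraries to animals. Called genes in neurons (1 among all genes, 0 of the 7 tested) became 49 with DESeq2, 17 with no filter, 10 with a 1 CPM filter and 38 without the 2 libraries of another identifier range, where Arc (1 of the 7) was called. In astrocytes, 66 became 441 with DESeq2, 561 with no filter, 15 with a sex marker covariate and 1682 in 1 fit of all 25 libraries. For the interaction, 56 became 425 with DESeq2 and 12 without those 2 libraries. Between cell types in P301S, 7420 became 4925 with that genotype alone.

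Leaving out 1 library gave 0 to 23 calls in neurons (0 to 1 of the 10 genes), 27 to 136 in astrocytes (0), 9 to 522 for the interaction (0 to 1), 6168 to 7209 between cell types in non-Tg (7 throughout) and 6840 to 7781 in P301S (6 to 7). A sex marker covariate turned the sign in astrocytes for Dusp1 (0.74), Bdnf (-0.37), Jund (-0.89), Inhba (-0.87), Celf4 (-0.86), Slc17a7 (-0.74) and Ptprc (-0.042), and in the interaction for Celf4 (-0.21) and Ptprc (-0.11); the cause was not tested. Leaving out 1 library turned the sign in astrocytes for Bdnf (-0.12 to 2.27), Dusp1 (-1.03 to 0.17), Egr1 (-0.18 to 0.43), Fos (-0.44 to 0.51) and Inhba (-0.26 to 1.77), and in the interaction for Fos (-0.69 to 0.30), Nr4a1 (-0.27 to 1.50) and Tek (-1.29 to 0.52). With 1 library left out, 731 values of the 10 genes kept direction and side of the threshold, 14 turned sign and 3 passed it. Fos, Fosb and Junb are limited by depth in neurons.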
